A study of Mus musculus with 2 samples.

Results

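Chromatin contacts over 50 to 195 kb whose anchors both lay away from the annotated ends of protein-coding genes were examined in hair matrix keratinocytes. A contact is an enriched pixel, a pair of 5 kb bins on 1 chromosome that the authors' loop caller listed. Where a pixel or a joined pair is given a number of contacts, that number is its observed count. A pixel of either list belonged to the set where neither anchor bin had an end of a protein-coding gene (RefSeq, GRCm38.p6) within 5 kb. The rule used span and gene positions and no contact count. It kept 1652 of 8743 distinct pixels, 957 of 4872 in the Tet2/Tet3 double knockout library (DKO) and 1098 of 5811 in the wild-type library (WT), and 403 of them were listed in both.

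Hi-C reads which stretches of DNA are near each other in the nucleus by ligating fixed, digested chromatin and sequencing the junctions. It was run on primary hair matrix keratinocytes, which divide in the hair bulb and give rise to the hair shaft and the inner root sheath, taken at postnatal day 4.5. The DKO mice lacked Tet2 and Tet3 through Krt14-Cre, a recombinase driven by the promoter of a keratin of basal epidermis and outer root sheath, so the deletion is limited by design to cells in which that promoter is or was active. The WT mice are labelled with no allele or agent, and each genotype had 1 library. Contacts do not measure transcripts, so neither the cell type nor the deletion could be checked by its marker genes, and genotype cannot be told apart from any other way in which the 2 libraries differ. Exact 95% intervals are given. They cover counting error only and treat pixels as independent, which neighbouring pixels are not.

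The enzymes TET2 and TET3 convert 5-methylcytosine to oxidised forms, a step toward removal of DNA methylation. Loops in mammalian chromatin are held by cohesin, commonly where it meets CTCF bound to DNA in convergent orientation, and others join enhancers and promoters. CTCF binding at some of its sites is blocked by methylation of the DNA it contacts. Enhancers often lie inside introns or between genes, and contacts without a gene end at either anchor include pairs of this kind as well as pairs of CTCF sites. The lists do not say which kind a contact is, and occupancy by CTCF or cohesin was not analysed here.

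The rule itself keeps the outer starts of protein-coding genes away from the anchors. A few of the annotated starts that remain are shown here because they name the transcript at an anchor that has no protein-coding gene end. An anchor bin on chromosome 15 holds the hairpins of let-7b and let-7c-2, members of a miRNA family that restrains proliferation genes, and an anchor on chromosome 1 holds miR-205, a miRNA abundant in epidermis and hair follicle. Their mature sequences (RefSeq, GRCm38.p6) lie at chr15:85707325-85707346 and chr15:85706616-85706637 on the plus strand and at chr1:193507503-193507524 on the minus strand. They are written 5′ to 3′ with the seed, bases 2 to 8, in capitals, and both let-7 members share the seed GAGGUAG.
mmu-let-7b-5p: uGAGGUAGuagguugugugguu
mmu-let-7c-5p: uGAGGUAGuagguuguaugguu
mmu-miR-205-5p: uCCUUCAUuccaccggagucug

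A second pair shown joins 2 starts. The anchor of 1 WT contact on chromosome 17 holds the start of Tincr, an RNA known from differentiating human epidermis (chr17:56554338-56554637, minus strand), and its other anchor holds a start inside the body of Ptprs, a receptor tyrosine phosphatase (chr17:56462172-56462471, minus strand). The other window is a start inside Dhx30, which encodes an RNA helicase (chr9:110101038-110101337, minus strand). It is shown because it was the protein-coding start at a member anchor that matched the core of the CTCF motif. Each window runs from 250 bases before to 50 bases after the start, 5′ to 3′ on the gene's strand (RefSeq, GRCm38.p6), and capitals mark the motif match, of which the Tincr and Ptprs windows hold none.
Tincr: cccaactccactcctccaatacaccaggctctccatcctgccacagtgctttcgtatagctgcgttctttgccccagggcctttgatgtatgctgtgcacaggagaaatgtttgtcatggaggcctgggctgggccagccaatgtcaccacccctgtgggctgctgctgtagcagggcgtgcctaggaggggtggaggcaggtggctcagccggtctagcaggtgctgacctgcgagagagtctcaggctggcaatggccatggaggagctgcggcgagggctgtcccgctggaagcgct
Ptprs: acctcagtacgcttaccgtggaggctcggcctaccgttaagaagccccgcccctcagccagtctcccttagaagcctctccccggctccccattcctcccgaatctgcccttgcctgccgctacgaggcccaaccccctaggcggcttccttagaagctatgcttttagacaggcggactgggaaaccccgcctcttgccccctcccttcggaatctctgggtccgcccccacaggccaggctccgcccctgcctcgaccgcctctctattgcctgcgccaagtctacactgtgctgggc
Dhx30: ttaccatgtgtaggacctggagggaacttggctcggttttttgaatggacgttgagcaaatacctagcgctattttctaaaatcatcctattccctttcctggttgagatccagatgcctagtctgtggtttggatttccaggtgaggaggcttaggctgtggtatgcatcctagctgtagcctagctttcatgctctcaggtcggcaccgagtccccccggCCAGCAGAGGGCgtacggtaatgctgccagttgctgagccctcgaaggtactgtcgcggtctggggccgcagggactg

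The core searched for was CCA, any 2 bases, AG, any 2 bases and GGC, on both strands, and no other motif was searched. It was present in 7 of 161 start windows in anchor bins, 4.35% (1.77 to 8.75), and in 797 of 32851 start windows in the table, 2.43%. Of the 7 matches, 6 were at starts of lncRNAs, and the match at Dhx30 was on the strand of the gene. The Dhx30 anchor was joined to the body of Map4, a microtubule-associated protein, over 120 kb. The pixel had an observed count of 15 in DKO at 5.63 times expected (3.15 to 9.29), and it was not listed in WT. A match is a run of letters and not a bound site.

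Enrichment below is the observed contact count divided by the expected count of the surrounding donut-shaped neighbourhood. Contacts without a gene end made up 30.3% of the 3161 DKO pixels of this span (28.7 to 31.9) and 29.6% of the 3713 WT pixels (28.1 to 31.1). Their median enrichment was 5.13 in DKO (5.01 to 5.21) and 5.17 in WT (5.07 to 5.27), against 4.55 in DKO (4.46 to 4.64) and 4.64 in WT (4.56 to 4.75) where both anchors were at gene ends. Contacts with 1 anchor at a gene end lay between, at 4.94 in DKO and 4.97 in WT. The observed counts behind members were low, with a median of 17 in DKO and 18 in WT and ranges of 10 to 55 in DKO and 10 to 59 in WT, and the median was 19 in both other classes in both libraries. Median expected counts were 3.48 in DKO and 3.52 in WT, against 4.12 in DKO and 4.21 in WT where both anchors were at gene ends. Only called pixels are listed, and a pixel with a lower expected count needs a higher ratio to be called. Expected counts were not matched here or within spans, so these medians do not rank the classes by contact strength. Members spanned more, with a median of 100 kb in DKO and 115 kb in WT, against 85 kb in DKO and 90 kb in WT for contacts that joined gene ends. Enrichment grew with span in every class, so the classes were also set side by side within spans. At 50 to 95 kb the median of members was 4.65 in DKO (4.43 to 4.80) and 4.56 in WT (4.45 to 4.75), against 4.30 in DKO (4.14 to 4.38) and 4.24 in WT (4.13 to 4.35) for contacts that joined gene ends. At 150 to 195 kb it was 5.47 in DKO (5.34 to 5.68) and 5.95 in WT (5.71 to 6.18), against 5.45 in DKO (5.09 to 5.82) and 5.63 in WT (5.44 to 6.03), and the intervals overlap in both libraries. At 100 to 145 kb it was 5.25 in DKO (5.14 to 5.45) and 5.28 in WT (5.12 to 5.49), against 4.84 in DKO (4.72 to 5.05) and 4.94 in WT (4.78 to 5.13). Contacts with 1 anchor at a gene end did not lie between the others at every span, with 5.65 in DKO at 150 to 195 kb and 4.56 in WT at 50 to 95 kb. The nearest pixels on either side of the gene-end rule were alike in enrichment, with medians of 4.97 over 109 DKO pixels just outside 5 kb and 4.95 over 119 just inside it, and of 5.17 over 123 WT pixels just outside and 5.16 over 153 just inside.

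At the limits of span, members of 50 kb numbered 46 in DKO and 46 in WT, and pixels of 45 kb that met the gene-end rule numbered 45 in DKO and 43 in WT. Members of 195 kb numbered 18 in DKO and 33 in WT, and pixels of 200 kb numbered 14 in DKO and 28 in WT. Joined by single linkage at 20 kb, the members stood for 569 loops in DKO and 594 in WT, and neighbouring pixels of 1 loop are not separate contacts.

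The DKO list held fewer of these contacts than the WT list, a ratio of 0.872 (0.798 to 0.951). The ratio was 0.838 over the whole lists, 0.803 for contacts with 1 gene-end anchor (0.746 to 0.863) and 0.915 where both anchors were at gene ends, with an interval that holds 1. The ratio was lower at longer spans, and the difference between spans was not tested. At 50 to 95 kb there were 443 contacts in DKO and 440 in WT (DKO/WT 1.01, 0.880 to 1.15). At 100 to 145 kb there were 291 in DKO and 360 in WT (0.808, 0.690 to 0.946), and at 150 to 195 kb 223 in DKO and 298 in WT (0.748, 0.626 to 0.893). Contacts of the same spans with a gene end had ratios of 0.894, 0.790 and 0.791 in that order. Counted as loops the DKO/WT ratio of members was 0.958 (0.852 to 1.076). That interval holds 1 and also the ratio over pixels, so it does not decide whether DKO had fewer loops. Over pixels the ratio was 0.793 (0.692 to 0.907) at a false discovery rate (FDR) under 0.01 in all neighbourhoods. With at least 20 observed counts it was 0.777 (0.669 to 0.901).

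**Figure D1:**
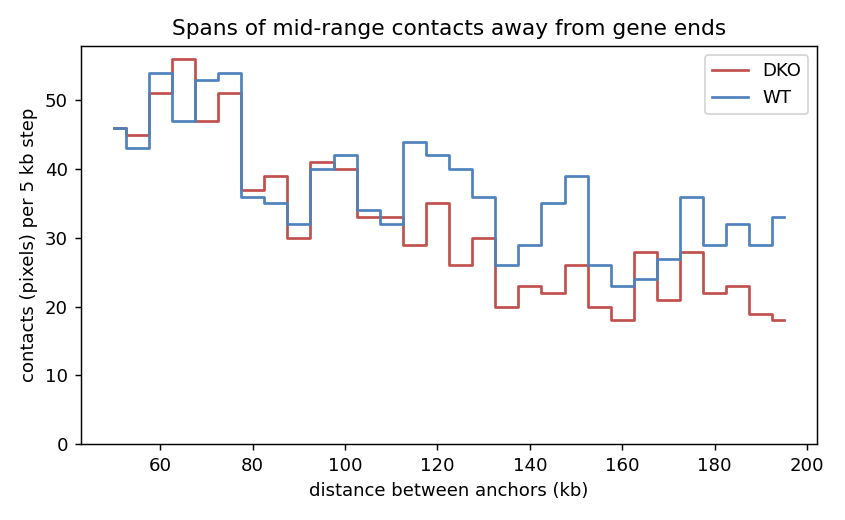
Number of mid-range contacts away from gene ends (pixels, y axis) at each distance between anchors (kb, x axis, 5 kb steps) in the DKO and WT lists. The lines run together up to 95 kb, where DKO has 443 contacts and WT 440, and the DKO line is mostly the lower one from 115 kb on.

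Of the DKO members 42.1% were at a pixel that WT also listed (39.0 to 45.3), where 39.8 percent of all DKO pixels were. Of the WT members 36.7% were listed in DKO (33.8 to 39.6), where 33.4 percent of all WT pixels were. These are the same 403 pixels over 2 denominators. With a pixel of the other list allowed within 2 bins at both anchors, 73.6% of DKO members (background 70.5 percent) and 74.1% of WT members (background 67.6 percent) had a counterpart. Members without one numbered 253 in DKO and 284 in WT, and by span they were 145 in DKO and 123 in WT at 50 to 95 kb, 65 in DKO and 93 in WT at 100 to 145 kb, and 43 in DKO and 68 in WT at 150 to 195 kb. A pixel that is not listed in a library was not called there, which does not show that the contact is absent.

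An anchor lay in a gene body in 72.6% of DKO members (69.7 to 75.4) and 72.0% of WT members (69.3 to 74.7). Of the distinct anchor bins 49.6% lay in a body, and a member counts when either anchor does. The share among other contacts is not given here, so it cannot be called a trait of members. An anchor bin was taken as inside a body where it overlapped a protein-coding gene, and exon and intron positions were not used here. Both anchors lay in the same gene in 118 DKO and 130 WT members, and in different genes in 112 DKO and 141 WT members. In 465 DKO and 520 WT members 1 anchor lay in a gene body and the other between genes, and in 262 DKO and 307 WT members both were intergenic. In that order they made up 12.3%, 11.7%, 48.6% and 27.4% of DKO members and 11.8%, 12.8%, 47.4% and 28.0% of WT members. The DKO/WT ratio of the 4 kinds was 0.908, 0.794, 0.894 and 0.853 in the same order, each with an interval that holds 1. Median enrichment differed little between kinds, from 4.96 for different genes to 5.19 for intergenic pairs in DKO and from 4.86 for pairs in the same gene to 5.25 for intergenic pairs in WT.

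**Figure D2:**
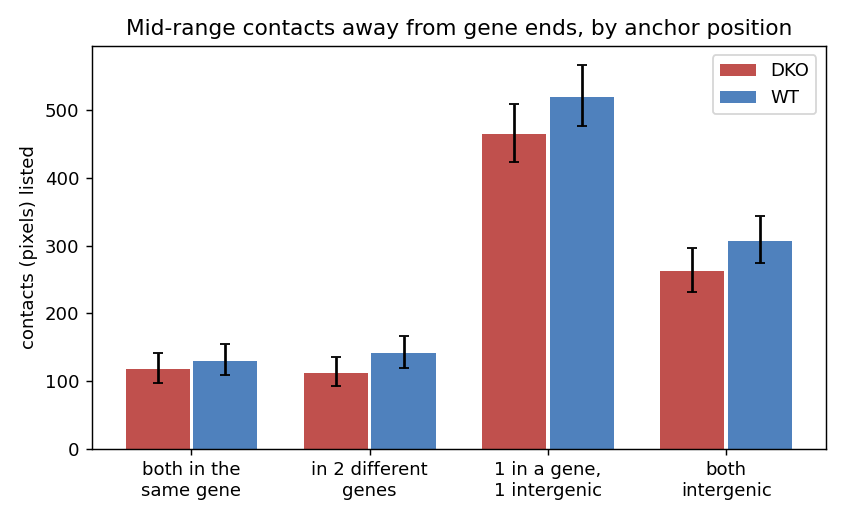
Number of mid-range contacts away from gene ends (pixels, y axis) by where their anchors lay, DKO left of WT, with bars from 0 and exact 95% Poisson intervals as error bars. Pairs of a gene body and an intergenic bin are the most frequent kind in both libraries, with 465 in DKO and 520 in WT, and the intervals of the libraries overlap in each kind.

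The 1652 members used 2435 distinct anchor bins, 1208 in gene bodies and 1227 between genes. The median distance to the nearest protein-coding gene end was 20.2 kb for anchors in bodies and 19.0 kb for intergenic anchors, and 96 body and 110 intergenic anchors were over 100 kb away. Most bins, 1798, served 1 member pixel, and 6 served 5. Another pixel of either list joined 452 of the bins (18.6%) to a bin at a gene end. A start of a protein-coding gene inside its own annotated body lay in 19 of 1148 body anchors outside chromosome 18, for which no start windows were used. A lncRNA start lay in the bin of 90 of 1179 intergenic anchors (7.63%) and 21 of 1148 body anchors (1.83%). Within 5 kb, an end of any noncoding gene or pseudogene lay at 40.7% of intergenic and 16.2% of body anchors. Counted per contact, such an end lay at an anchor of 48.2% of DKO and 46.9% of WT members. The share was 52.0% in DKO and 50.3% in WT for contacts with 1 gene-end anchor. It was 52.0% in DKO and 52.9% in WT where both anchors were at gene ends, so noncoding ends are not a trait of members. The share of lncRNA starts among other contacts is not given here.

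Contacts with both anchors inside 1 gene were found in 106 genes, 71 in DKO, 64 in WT and 29 in both. Of all 678 genes with a member anchor in the body, 266 had one in both libraries. Maml2, a coactivator of NOTCH receptors, held the most. Its 11 DKO pixels had 12 to 25 contacts on expected counts of 0.442 to 0.826, an enrichment of 16.6 to 56.5. Its 6 WT pixels, all of them among the DKO pixels, had 12 to 20 contacts on expected counts of 0.394 to 0.804, an enrichment of 17.2 to 32.6. The pixels formed 1 patch over 95 to 120 kb of the 413 kb gene (chromosome 9, 13296561 to 13709533). The pixel with most contacts in DKO, between 13320001 and 13415001, had 25 in DKO and 12 in WT, and its DKO/WT ratio of enrichment, 1.86 (0.898 to 4.05), was the highest of the 6 shared pixels. The others had ratios of 0.861 to 1.35, the lowest at the pixel with most contacts in WT, 19 in DKO and 20 in WT. The 5 pixels listed in DKO alone had 12 or 13 contacts each.

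**Figure D3:**
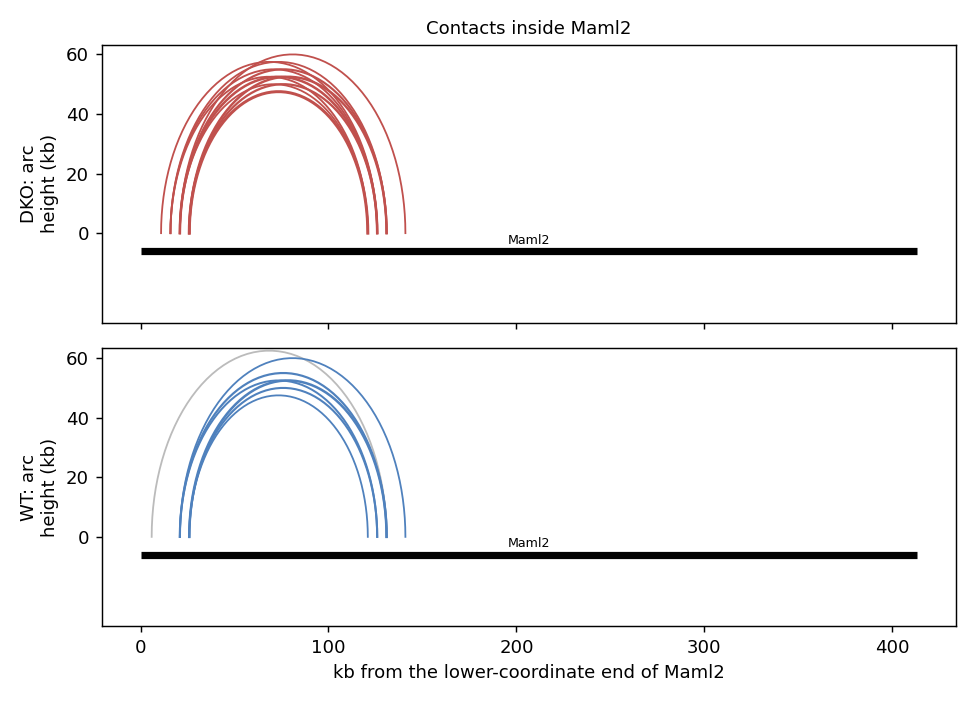
Contacts inside Maml2 as arcs between anchor bins (x axis, kb from the gene's lower-coordinate end; arc height grows with the span), DKO above WT, with line width growing with the observed count and grey for a pixel with an anchor within 5 kb of a gene end. The 11 DKO and 6 WT members run between the same stretches of the gene and span 95 to 120 kb.

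Fam163a had 5 DKO and 5 WT pixels inside its body, 3 of them shared, likewise on expected counts under 1. Their enrichment was 20.1 to 36.1 in DKO and 15.7 to 51.2 in WT. Expected counts under 1 were found in 58 DKO members (6.06%) and 55 WT members (5.01%), and among contacts joining gene ends in 21 of 859 in DKO and 18 of 939 in WT. They were 26 of 118 same-gene members in DKO and 20 of 130 in WT, and 32 of 262 intergenic members in DKO and 34 of 307 in WT. Among all other members there were 0 in DKO and 1 in WT. The intergenic ones fell in 15 places, the most populous with 8 pixels on chromosome 14 (24645001 to 24730000, 148 kb from Rps24), 5 in DKO and 8 in WT. The mappability of these bins was not tested.

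The 6 internal pixels of Sgms2, a sphingomyelin synthase, the 3 of Intu and the 3 of Atp6v0a2 also had expected counts under 1. Ank3, Spata13 and 2900026A02Rik had expected counts over 1 at each internal pixel. Ank3, which encodes the membrane adaptor ankyrin-G, had 4 DKO and 5 WT pixels, 1 shared, with 11 to 18 contacts in DKO and 12 to 20 in WT. Spata13 had 5 DKO pixels with 15 to 29 contacts and 6 WT pixels with 15 to 24. The uncharacterised gene 2900026A02Rik had 5 DKO and 7 WT pixels, with an enrichment of 3.95 to 5.91 in DKO and 3.46 to 5.86 in WT. Among the best supported same-gene contacts, a pixel of 70 kb in Camta1, a calmodulin-binding transcription activator, had 40 contacts in DKO and 47 in WT (7.30 times expected in DKO and 9.64 in WT). A pixel of 185 kb in Kcnip1, a potassium channel partner, had 21 in DKO and 28 in WT (7.83 times expected in DKO and 8.16 in WT), and 1 of 120 kb in Kalrn had 18 in DKO and 24 in WT (6.65 times expected in DKO and 8.29 in WT). All 3 ratios of enrichment had intervals that hold 1.

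Between different genes, the strongest pixel joined Myo18a, an unconventional myosin, to Sez6, a neuronal membrane protein, over 140 kb on chromosome 11. It had 38 contacts in DKO at 9.87 times expected (6.98 to 13.5) and 59 in WT at 12.1 times (9.21 to 15.6). The Sez6 bin, 77965001 to 77970000, was joined to 5 neighbouring bins of Myo18a and was among the 6 most used anchors. Slc49a4 was joined to Hspbap1 with 32 contacts in DKO and 36 in WT (7.77 times expected in DKO and 9.35 in WT). Pdgfrl, a receptor-like protein, was joined to Mtus1, a microtubule-associated protein, with 23 in DKO and 31 in WT (7.69 times expected in DKO and 9.49 in WT).

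Of the pairs between a body and an intergenic bin, an intergenic anchor on chromosome 7 (139300001 to 139305000) was joined to neighbouring bins of Inpp5a, an inositol phosphatase. The pixels had 24 and 28 contacts in DKO and 23 and 28 in WT, at 9.67 and 9.57 times expected in DKO and 9.12 and 9.39 in WT. Vwf, which encodes von Willebrand factor of endothelium, was joined over 185 kb to a bin beyond Cd9, a tetraspanin, with 19 contacts in DKO and 24 in WT (9.35 times expected in DKO and 10.9 in WT). Stpg1 hosted the most distinct members of any gene over both lists, 12, of which 9 were in DKO and 11 in WT, while in DKO alone Maml2 had more. They enclose Grhl3, a transcription factor needed for the epidermal barrier.

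In the purely intergenic class, the best supported pixel reached from the bin before Mir6516 and the lncRNA Snhg20 across Sec14l1 over 105 kb on chromosome 11. It had 40 contacts in DKO at 9.50 times expected (6.79 to 12.9) and 42 in WT at 9.67 times (6.97 to 13.1), and the bin that holds the hairpin had a member pixel in both libraries as well. A pixel on chromosome 6 (50805001 to 50940000), between lncRNA genes and 151 kb from the nearest protein-coding end, had 26 contacts in DKO and 30 in WT (8.27 times expected in DKO and 8.87 in WT). A pixel across Trmt9b, a tRNA methyltransferase homologue, had 25 in DKO and 20 in WT (10.3 times expected in DKO and 9.28 in WT).

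At the let-7 locus the bin with both hairpins (chromosome 15, 85705001 to 85710000) and the bin after it, which holds the start of the lncRNA Gm34622, were joined to 5 bins that lie 13.2 to 33.2 kb from an end of Wnt7b, a WNT ligand of skin epithelium. There were 7 such pixels in each library, with 15 to 26 contacts in DKO and 15 to 31 in WT, at 4.90 to 8.65 times expected in DKO and 4.28 to 7.32 in WT. The bin after the hairpins was also joined to Gtse1, 155 kb to the other side, with 17 contacts in DKO and 16 in WT. The miR-205 anchor had 1 member, over 80 kb, with 23 contacts in DKO at 4.14 times expected (2.62 to 6.21), and it was not listed in WT. The contact between Tincr and the internal start of Ptprs had 22 contacts in WT at 3.33 times expected (2.09 to 5.04), enclosed Znrf4 and was not listed in DKO.

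**Figure D4:**
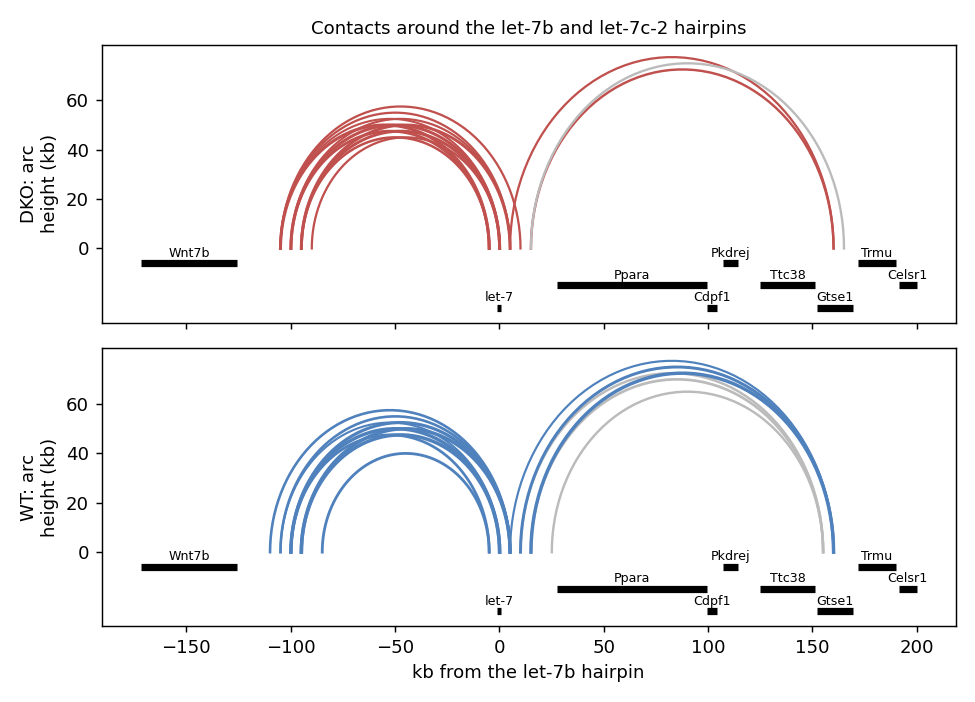
Contacts with an anchor near the let-7b and let-7c-2 hairpins as arcs (x axis, kb from the let-7b hairpin; arc height grows with the span), DKO above WT, with black bars for genes, line width growing with the observed count, and grey for pixels with an anchor within 5 kb of a protein-coding gene end. Both libraries show a bundle toward Wnt7b, with 7 pixels each at the bin of the hairpins and the bin after it, and a second one across Ppara toward Gtse1.

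At starts inside gene bodies, a bin in Ctnnbip1, which encodes an inhibitor of β-catenin, was joined to 3 bins of Clstn1. The pixel with most contacts had 27 in DKO and 39 in WT, at 5.88 times expected in DKO against 8.54 times in WT, a DKO/WT ratio of 0.689 (0.406 to 1.15), and the other shared pixel had 24 in DKO and 28 in WT (1.004, 0.557 to 1.80). A start inside Runx1, a transcription factor of hair follicle stem cells and cortex, was joined over 75 kb to another bin of the gene with 19 contacts in WT at 2.93 times expected (1.77 to 4.58), and was not listed in DKO. A start inside Fat2, an atypical cadherin of keratinocytes, was joined to a bin near Sparc with 30 contacts in DKO at 3.57 times expected (2.41 to 5.09), and was not listed in WT.

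Genes of the hair follicle and epidermis were followed as hosts of anchors and as genes enclosed between anchors. Of all 21900 protein-coding genes, 678 hosted an anchor (3.10%), and of the 11784 genes at least 15 kb long 5.75% did. The 678 hosts were 467 in DKO, 477 in WT and 266 in both. Hosts were long, with a median of 85.5 kb, against 17.1 kb over all protein-coding genes, and a gene under 15 kb has little or no room for a bin over 5 kb from both ends. Adhesion, desmosome and basement membrane genes hosted anchors in 10 of 36 cases (27.8%, 14.2 to 45.2), 6 in DKO, 6 in WT and 2 in both, and 34 of the 36 are at least 15 kb long. Hair follicle transcription factors did in 6 of 38, BMP, SHH, NOTCH, FGF and ectodysplasin genes in 5 of 44, WNT genes in 4 of 36, keratins in 1 of 34 and loop architecture genes in 1 of 20. No DNA methylation gene of 21 did, Tet2 and Tet3 included, nor did a marker of melanocytes (0 of 10), of dermal papilla and fibroblasts (0 of 19) or of immune, endothelial and nerve cells (0 of 19).

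Lama3, a laminin chain of the epidermal basement membrane, was joined to Ankrd29 over 165 to 180 kb on chromosome 18 by 4 pixels in DKO and 5 in WT. The pixel with most contacts in WT had 20 in DKO and 28 in WT, at 4.36 times expected in DKO against 6.35 times in WT, and the ratio was 0.687 (0.367 to 1.26). The pixel with most contacts in DKO had 21 in DKO and 21 in WT, and its ratio was 1.03 (0.537 to 1.99). Pard3, a cell polarity scaffold, had 2 DKO and 3 WT pixels, and Col4a1 and Col4a2, neighbouring chains of basement membrane collagen, were joined to each other by 2 WT pixels of 20 and 19 contacts. Apc, a scaffold of β-catenin degradation, had 3 pixels in each library, with 13 to 18 contacts in DKO and 16 to 18 in WT. Lrp4, a WNT and BMP modulator, had 1 DKO pixel of 21 contacts and 2 WT pixels of 19 and 17. Ctcfl, the germline relative of CTCF, was joined across Pck1 by 3 DKO and 4 WT pixels, the strongest with 28 contacts in DKO and 32 in WT (8.90 times expected in DKO and 8.83 in WT). Single member pixels of 11 to 19 counts in 1 library were found for Foxp1, Bmpr1a and Lgr6 in DKO and for Bnc2, Grhl2, Notch1, Notch3 and Sfrp1 in WT. Of the 6 hair follicle transcription factors that hosted anchors, Tcf7l1 alone had its pixel in both libraries. That pixel had 19 contacts in DKO and 21 in WT.

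Members enclosed no protein-coding gene in 59.4% of DKO cases (568 contacts) and 55.7% of WT cases (612). The rule itself bears on this share, which was 48.5% in DKO and 46.2% in WT where only ends inside the bin counted, and 69.2% in DKO and 64.6% in WT where ends within 10 kb did. The enclosed genes numbered 488 of 21900 (2.23%), 331 in DKO, 377 in WT and 220 in both. Of 34 keratins 5 were enclosed, 5 in DKO and 2 in WT, but by only 2 sets of anchors. Krt8 and Krt18, the keratin pair of simple epithelia, lay inside the contact from Krt78, which had 55 contacts in DKO at 11.3 times expected (8.54 to 14.7) and 39 in WT at 7.95 times (5.65 to 10.9). Krt14, Krt16 and Krt17, keratins of basal and follicular epithelium, lay inside 1 pixel of 125 kb with 23 contacts in DKO at 4.34 times expected (2.75 to 6.51), which was not listed in WT.

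Grhl3 was enclosed by the most members of any gene on these lists. The pixel from 135515001 to 135665001 on chromosome 4 had 35 contacts in DKO at 6.46 times expected (4.497 to 8.98) and 42 in WT at 8.62 times (6.22 to 11.7). Dlx3, a transcription factor of hair matrix and shaft, was enclosed by 1 DKO pixel of 27 contacts and 1 WT pixel of 23, a bin apart. Klf4, a transcription factor of epidermal differentiation, was enclosed by a WT pixel of 12 contacts. In the WNT list, the receptor gene Fzd2 was enclosed by 5 DKO and 6 WT pixels, the strongest with 30 contacts in DKO and 32 in WT. The ligand gene Wnt3 was enclosed by 3 DKO and 4 WT pixels, the coreceptor gene Lrp6 by 2 DKO pixels and 1 WT pixel, and Dkk3, of the Dickkopf family, by 3 in WT. Of BMP targets, Id3 was enclosed by 4 pixels in each library, all 4 shared, with up to 29 contacts in both, and Smad6, an inhibitor of the pathway, by 4 in each with up to 27 in DKO and 26 in WT. The desmosomal gene Perp was enclosed by 3 DKO and 2 WT pixels, with up to 25 contacts in DKO and 16 in WT. Wapl, which releases cohesin from DNA, was enclosed by 3 pixels in WT with up to 22 contacts. Of DNA methylation genes 2 of 21 were enclosed, Gadd45a by 1 DKO and 2 WT pixels and Gadd45b by 1 WT pixel. Of markers of other cell types, Pecam1 of endothelium was enclosed by 1 DKO pixel and Cd74 of antigen-presenting cells by 1 WT pixel, which are positions and not expression.

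At the 403 members listed in both libraries the median enrichment was 5.42 in DKO and 5.73 in WT. These pixels had to be called in both libraries, so a contact much weaker in 1 library can be missing from them. Their ratios therefore cannot show whether enrichment differed over all members. On the log2 scale the ratio DKO/WT had its median at −0.02 (−0.06 to 0.01) and its quartiles at −0.28 and 0.18, with 190 pixels above a ratio of 1 and 213 below. Expected counts had a median DKO/WT ratio of 0.972 at these pixels. Enrichment was at least 1.5 times higher in DKO at 12 members (2.98%), where 3.56 percent of all shared pixels were, and at least 1.5 times lower at 31 (7.69%, 5.29 to 10.7), where 5.26 percent of all shared pixels were. The interval of a single pixel lay above a ratio of 1 at 1 of the 403 members, against 11 of all 1940 shared pixels (0.567 percent). It lay below a ratio of 1 at 3 members, against 20 of the 1940 (1.03 percent). Of the 4 kinds of anchors, intergenic pairs had a median of −0.05 (−0.11 to −0.00), with 47 above 1 and 70 below. Pairs in the same gene had −0.04 (−0.17 to 0.01), with 18 above 1 and 27 below. Pairs in different genes had 0.01 (−0.23 to 0.14), and pairs of a body and an intergenic bin had 0.01 (−0.07 to 0.08). Shared contacts that joined gene ends had −0.04 (−0.08 to 0.01), and all 1940 shared pixels had −0.02 (−0.05 to −0.01). With at least 20 observed counts in both libraries, the median over all members was 0.04.

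**Figure D5:**
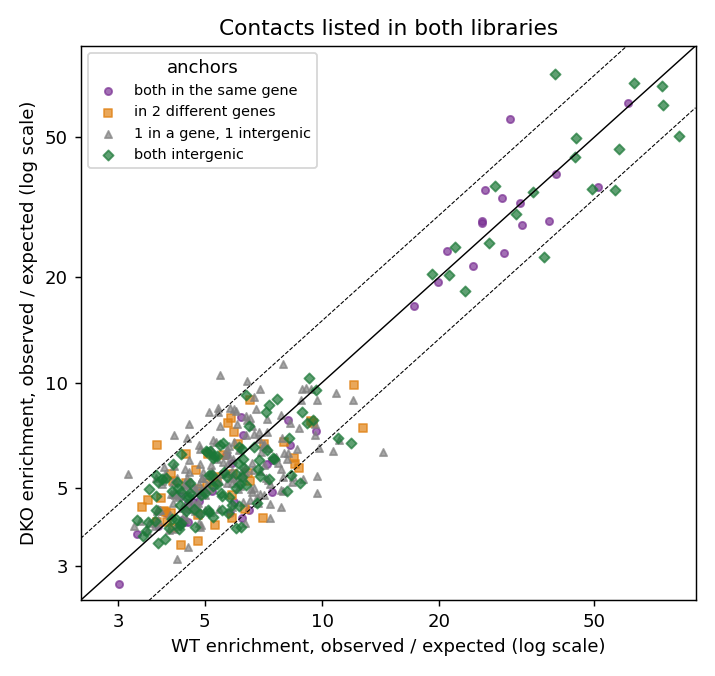
Enrichment (observed over expected contacts, log scales) of the 403 members listed in both libraries, DKO on the y axis and WT on the x axis, marked by where the anchors lay; the solid line marks equal values and the dashed lines a ratio of 1.5 either way. Points scatter about the line with 12 above the upper and 31 below the lower dashed line, and the separate group at high enrichment consists of same-gene and intergenic pairs.

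Among the 22 shared members with at least 30 contacts in each library, the contact of Krt78 described above had the highest ratio, 1.42 (0.928 to 2.21). It was followed by a pixel across Tmprss13, a membrane protease of epidermis, into Fxyd6, with 49 contacts in DKO and 35 in WT (1.42, 0.900 to 2.25). A pixel across Irf2bpl had 46 in DKO and 33 in WT (1.37, 0.856 to 2.21). The lowest was the contact between Wnt9b and Nsf that encloses Wnt3, with 31 contacts in DKO and 45 in WT (0.584, 0.357 to 0.943). Adjoining shared pixels lay on the other side of 1, with 21 in DKO and 14 in WT (1.40) and 19 in DKO and 14 in WT (1.15). A contact into Pfdn4 that encloses Cyp24a1, the enzyme that inactivates vitamin D, had 30 in DKO and 36 in WT (0.631, 0.375 to 1.05). Its adjoining shared pixel had 27 in DKO and 35 in WT (0.614, 0.358 to 1.04). A pixel around Grhl3 had 32 in DKO and 44 in WT (0.726, 0.445 to 1.17). Neighbouring shared pixels at the same higher-coordinate bin lay on both sides of 1. They had 33 in DKO and 28 in WT (1.14), 35 in DKO and 42 in WT (0.749), and 28 in DKO and 20 in WT (1.33). The pixels named here were picked as extremes of a ranking, which the intervals do not take into account.

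Of members with no counterpart within 2 bins and an expected count of at least 1, the most enriched in DKO reached into Arhgap15, a RAC-inactivating protein, over 180 kb with 15 contacts at 13.2 times expected (7.41 to 21.8). Next were Atp6v0a2, a proton pump subunit, joined to Dnah10, a ciliary dynein, with 13 contacts (10.4, 5.52 to 17.7), and Mpp7, a junction scaffold, with 13 (9.27, 4.94 to 15.9). The expected counts of these 3 pixels were low, 1.13, 1.25 and 1.40 in that order. A pixel inside Atp6v0a2 that starts in the next bin was listed in both libraries, on expected counts under 1. It lay at 39.2 times expected in DKO and 39.9 in WT. In WT the first reached from Asb4 across Pdk4 with 16 contacts at 12.5 times expected (7.15 to 20.3), followed by Wwc2, an adaptor of the Hippo pathway, with 15 (9.88, 5.53 to 16.3). An intergenic pixel of 12 contacts on chromosome 9 followed (9.47, 4.89 to 16.5). An anchor 5.23 kb from Tns1, a focal adhesion protein, was joined to 5 bins of that gene in WT, with 17 to 32 contacts, and to 1 of them in DKO, with 17.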

How the data were processed

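Hi-C of hair matrix keratinocytes at postnatal day 4.5 was deposited as 1 list of enriched pixels (5 kb bins) per genotype. The tool was juicer_tools 1.22.01, per the file headers, and the build GRCm38, per the submitters' processing notes. The authors deposited a raw observed contact count per pixel. Beside it the authors deposited a signal in units of contacts, the number expected from 4 neighbourhoods (donut, bottom-left, horizontal and vertical). They also deposited a q-value (FDR) per neighbourhood, all under 0.1, and a score that numbers classes of expected counts, which was not used. Pixels that were not called are not listed, and no source used here gives the sequencing depth, aligner or read filters, so the sum of a list is not a depth.

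Pixels were annotated with gene starts and ends from a RefSeq table of GRCm38.p6. Members are the pixels of each list that meet the rule. A gene was enclosed where both its ends lay between the anchor bins. Starts came from a RefSeq table of windows with 250 bases before and 50 after each start, which held none of chromosome 18. Motifs in whole anchor bins were not analysed here. Coordinates count from 1.

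Each genotype had a single library, so nothing was tested and there is no p-value or replicate check, and the labels do not say how many animals a library pools. Intervals (95%) are Poisson for counts, conditional binomial for ratios, Clopper-Pearson for shares and order-statistic for medians. They cover counting error only and take expected counts as fixed. Scripts used Python 3.11.15, pandas 2.3.3, NumPy 2.4.6 and SciPy 1.17.1, and were tested on simulated data.

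The members, 10 gene lists and settings were chosen with earlier results of these data known. Named were, per anchor kind, the 3 shared members with the highest lower enrichment of the 2 libraries and expected counts of at least 1; per list up to 4 genes hosting most members; the 5 genes with most internal members; the 3 highest and 3 lowest DKO/WT ratios over the shared members with 30 or more counts in both libraries; per library the 3 most enriched members with an expected count of at least 1 and no counterpart within 2 bins; and the most used anchor bins. Genes at internal starts and miRNA hairpins, enclosed genes, Stpg1, Sgms2, Intu, Tcf7l1, the internal pixels of Atp6v0a2, neighbouring pixels and the comparisons within spans were chosen once their values had been seen. Settings varied were an FDR under 0.01, at least 20 counts, gene ends inside the bin or within 10 kb, ends of all genes, 1 pixel per loop, autosomes, bin midpoints, looser matching and other expected counts.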

Additional observations from a re-analysis of the deposited data

How the results depend on the processing

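Of 150 recomputed values, 85 stayed within their counting interval or 1.5 times the count and 65 moved. Changes of direction were not counted separately. The median log2 DKO/WT enrichment of shared members, whose interval holds 0, was 0.036 with at least 20 observed counts, against −0.02. The number of members follows from the rule. It was 390 in DKO and 492 in WT at an FDR under 0.01 in all 4 neighbourhoods, 320 in DKO and 412 in WT with at least 20 counts, 1903 in DKO and 2224 in WT with gene ends inside the bin, 551 in DKO and 638 in WT with gene ends within 10 kb, 496 in DKO and 583 in WT with ends of all annotated genes, and 569 in DKO and 594 in WT with 1 pixel per loop. The DKO/WT ratio of these numbers was 0.793 at the strict FDR, 0.777 with at least 20 counts and 0.958 with 1 pixel per loop. Median enrichment of members was 6.03 in DKO and 6.27 in WT at the strict FDR, 5.34 in DKO and 5.58 in WT with at least 20 counts, 4.72 in DKO and 4.79 in WT over bottom-left, 4.37 in DKO and 4.48 in WT over horizontal and 4.36 in DKO and 4.43 in WT over vertical expected counts. In WT it was 5.33 with ends of all genes and 5.36 with 1 pixel per loop. Where both anchors were at gene ends it was 5.32 in DKO and in WT at the strict FDR, 4.34 in DKO and 4.42 in WT with ends inside the bin, 4.71 in DKO and 4.78 in WT with ends of all genes, 4.66 in DKO and 4.77 in WT with 1 pixel per loop, 4.40 in DKO and 4.43 in WT over bottom-left, 4.08 in DKO and 4.12 in WT over horizontal, and 3.95 in DKO and 4.04 in WT over vertical expected counts. In DKO it was 4.65 with ends within 10 kb. The share of members listed in both libraries was 45.9% in DKO at the strict FDR, 52.8% in DKO and 41.0% in WT with at least 20 counts, 36.7% in DKO and 33.3% in WT with 1 pixel per loop, 69.3% in DKO and 69.4% in WT within 1 bin, and 73.6% in DKO and 74.1% in WT within 2 bins. The share with an anchor in a gene body was 82.5% in DKO and 79.8% in WT with ends of all genes. The share enclosing no gene was 55.4% in DKO at the strict FDR, 53.8% in DKO with at least 20 counts, 48.5% in DKO and 46.2% in WT with ends inside the bin, 69.2% in DKO and 64.6% in WT with ends within 10 kb, and 62.5% in DKO and 59.4% in WT with ends of all genes. Median span was 90 kb in DKO and 100 kb in WT with at least 20 counts, and 105 kb in WT with ends inside the bin. The cause of these moves was not tested, apart from the number of members, which the rule itself sets. No paired analysis was possible because there is only 1 library for each genotype. Most members had under 20 observed counts, so a single pixel can show only large differences between the libraries.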
